A study of Mus musculus with 12 samples.

Results

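Obp2a and 5 other genes of lipocalin carriers, Lcn2, Ptgds, Rbp4, Apod and Apom, were followed in RNA of whole adrenal glands, and all 6 were found by symbol among the 24421 genes of the authors' table. Obp2a was selected on its difference between the group means described here, and the other 5 were chosen by their protein family, with earlier results of these data known, so the group differences of the members are a description and carry no test. The RNA came from 2-month-old female mice on a mixed sv129-C57BL/6 background, after adherent fat had been cleaned from the glands. There were 4 libraries of Abcg1 cKO, in which Cre driven by the aldosterone synthase gene Cyp11b2 removed the third exon of Abcg1, 4 of Abca1 cKO, in which the same Cre removed a pair of Abca1 exons, and 4 of control, which carried Cre alone by the series' design, while the methods also allow littermates with 1 conditional allele. By the series' design all 3 groups carried Cre, which the wording of the methods leaves uncertain for single controls, and the whole glands also held medulla and other cells that do not recombine. The study set Abcg1 cKO against the other 8 libraries taken as 1 group, called the pooled group here, in which control and Abca1 cKO cannot be separated. Values below are means of normalized counts made by the authors for each side. A normalized count is a read count divided by the size factor of its library. Values of single libraries could not be tied to labelled samples and were left out, and no spread between animals, replicate error or p-value stands behind any difference given here, and it cannot be told whether 1 library sets a mean.

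Lipocalins are small, mostly secreted proteins that fold into a barrel around a pocket for a lipophilic ligand, and they carry such ligands between cells or in plasma. Obp2a encodes an odorant-binding protein, which RefSeq also lists as Lcn13, and in mice this circulating protein has been linked to lipid and glucose metabolism. Rbp4 carries retinol in plasma, Apod binds lipids such as arachidonic acid and progesterone, and Apom carries sphingosine-1-phosphate on HDL. Ptgds is both a carrier and the enzyme that makes prostaglandin D2, and Lcn2 binds iron-loaded siderophores and is abundant in neutrophil granules.

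Obp2a lies on chromosome 2 of GRCm38 (mm10), where its GENCODE transcript of 7 exons runs from 25700043 to 25703326 on the plus strand and holds 744 bases, 528 of them coding. Obp2b, its nearest lipocalin neighbour downstream and a close relative, is annotated by RefSeq from 10.8 kb further along the same strand and also has 528 coding bases. The stretches in front of the 2 transcripts are printed here because the genes differed widely in level while these stretches hardly differ. Each shows the 150 bases before the GENCODE start, 5′ to 3′, read from the RefSeq promoter table for GRCm38.p6, with the TATA box motif TATAAA in capitals. Obp2a is from chr2:25699893-25700042 and Obp2b from chr2:25736859-25737008, both on the plus strand.
Obp2a: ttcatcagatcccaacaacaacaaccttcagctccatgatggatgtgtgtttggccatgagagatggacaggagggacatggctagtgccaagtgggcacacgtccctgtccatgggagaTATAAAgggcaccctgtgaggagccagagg
Obp2b: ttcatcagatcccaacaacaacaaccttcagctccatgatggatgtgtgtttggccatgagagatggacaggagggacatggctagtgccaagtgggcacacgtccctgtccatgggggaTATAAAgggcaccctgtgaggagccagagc

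Of the 150 bases, 148 were identical, and the differences were A118G and G150C, written as the Obp2a base, its position counted from 1 at the 5′ end of the printed stretch, and the Obp2b base. Over the longest stretch that both windows covered, 215 of 219 bases were identical (98.2%). In both genes TATAAA began 30 bases before the GENCODE start. The start on which the RefSeq window of Obp2a is placed lies further downstream and had it 61 bases upstream. The RefSeq span of Obp2a begins upstream of the GENCODE start, at 25697577. Between 45 and 16 bases before the start, on the strand of the gene, this motif was found at 2.96% of 13168 starts of GENCODE principal transcripts whose upstream bases a RefSeq window covered. Among the other members, the stretch was covered for Lcn2, Ptgds, Rbp4 and Apod, and none held TATAAA there. The RefSeq window of Rbp4 at chr19:38124762-38125061 had it 28 bases before its own start. The RefSeq window of Rbp4 at chr19:38125272-38125571 did not hold it. Searched on both strands, TATAAA occurred in 13.6% of all 32851 RefSeq windows of 300 bases, which run from 250 bases before to 50 after a start. The SF-1 half-site AAGGTCA occurred in 4.72% of these windows, the sterol response element TCACCCCAC in 0.551% and the cAMP response element TGACGTCA in 1.79%. None of them was among the letters of any of the 7 windows of the 6 members. The shorter cAMP half-site TGACG occurred in 20.8% of all windows. Among the members it was found only in the Rbp4 window at chr19:38124762-38125061, 172 bases before the start of that window's transcript.

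Obp2a was the member with the largest difference between the groups. Its authors' mean normalized count was 655 in Abcg1 cKO adrenals and 78.3 in the pooled group of control and Abca1 cKO adrenals. With a pseudocount of 1 added to each mean, this is a fold of 8.27, or a log2 ratio of 3.05, Abcg1 cKO over the pooled group. Among the 14479 genes with a mean of 10 or more in at least 1 of the groups this was the highest ratio, and 0.228% of these genes had a ratio as large in either direction. These values chose the gene and are given as a description. In RNA of whole tissue, more cells of a type and more RNA per cell cannot be told apart. Reads of Obp2a can be told from those of Obp2b over most of the transcript, since 11.7% of its 695 runs of 50 bases also occur in another GENCODE transcript, all of them in Obp2b, and 75.9% of 713 aligned bases of the transcripts were identical.

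**Figure D1:**
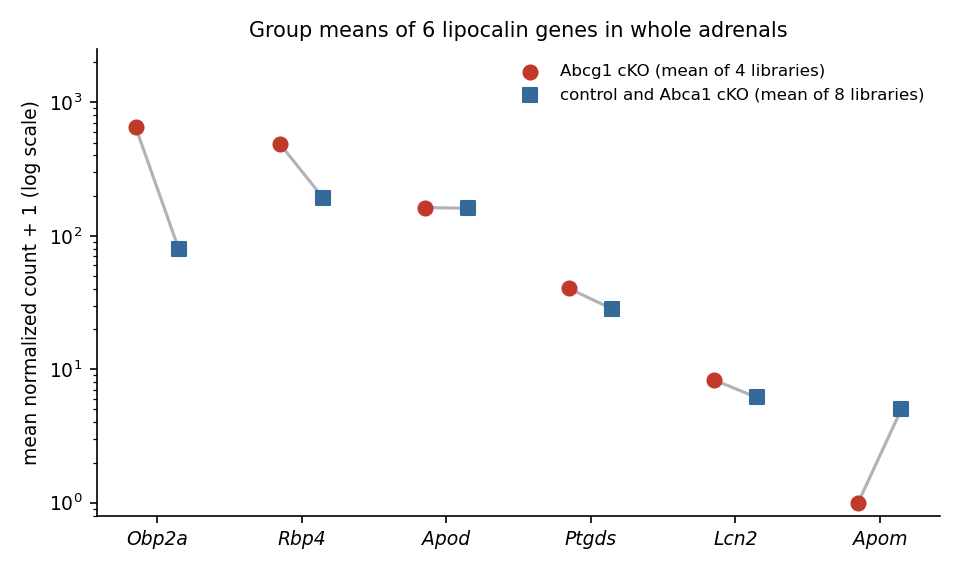
Authors' mean normalized count plus 1, on a log scale, of the 6 lipocalin genes in Abcg1 cKO adrenals (red circles, mean of 4 libraries) and in the pooled control and Abca1 cKO adrenals (blue squares, mean of 8 libraries), with no error bars because values of single libraries were not used. Obp2a stood at 655 in Abcg1 cKO and 78.3 in the pooled group, Apod at 161.6 in Abcg1 cKO and 160.1 in the pooled group, and Apom was listed at 0 in Abcg1 cKO. Counts are not scaled by gene length.

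The other members had smaller differences. In RefSeq coordinates of GRCm38.p6, Rbp4 lies on chromosome 19 from 38116620 to 38125321, Apod on chromosome 16 from 31296192 to 31314808, Apom on chromosome 17 from 35128997 to 35131801, and Lcn2 and Ptgds on chromosome 2 from 32384637 to 32387739 and from 25466709 to 25470110. No exon of any member overlapped an exon of another gene in GENCODE. Rbp4, the retinol carrier, had a mean of 485 in Abcg1 cKO adrenals against 190.4 in the pooled group, a log2 ratio of 1.35, which ranked 47 among the 14479 genes. Ptgds, the prostaglandin D synthase, had means of 39.3 in Abcg1 cKO and 27.3 in the pooled group (log2 ratio 0.51), and 8.47% of the genes had a ratio as large in either direction. Apod was at almost the same level in both, with 161.6 in Abcg1 cKO and 160.1 in the pooled group (log2 ratio 0.01). Lcn2 and Apom had means under 10 in each group. Lcn2 had means of 7.34 in Abcg1 cKO and 5.15 in the pooled group, and Apom was listed at 0 in Abcg1 cKO against 4.04 in the pooled group, so no fold is given for it.

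Of the 6 members, 4 had a mean of 10 or more in at least 1 group, and Obp2a, Rbp4, Ptgds and Apod had it in both. Of these 4, 2 had a ratio of 2-fold or more upward, Obp2a and Rbp4, and none had one downward. Over all 14479 genes, 0.822% had a mean at least 2-fold higher in Abcg1 cKO by this ratio and 1.12% a mean at least 2-fold lower. The members were chosen with this contrast in view, and the count is not evidence about the family. The median log2 ratio was 0.93 over the 4 members and 0.0012 over all 14479 genes.

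**Figure D2:**
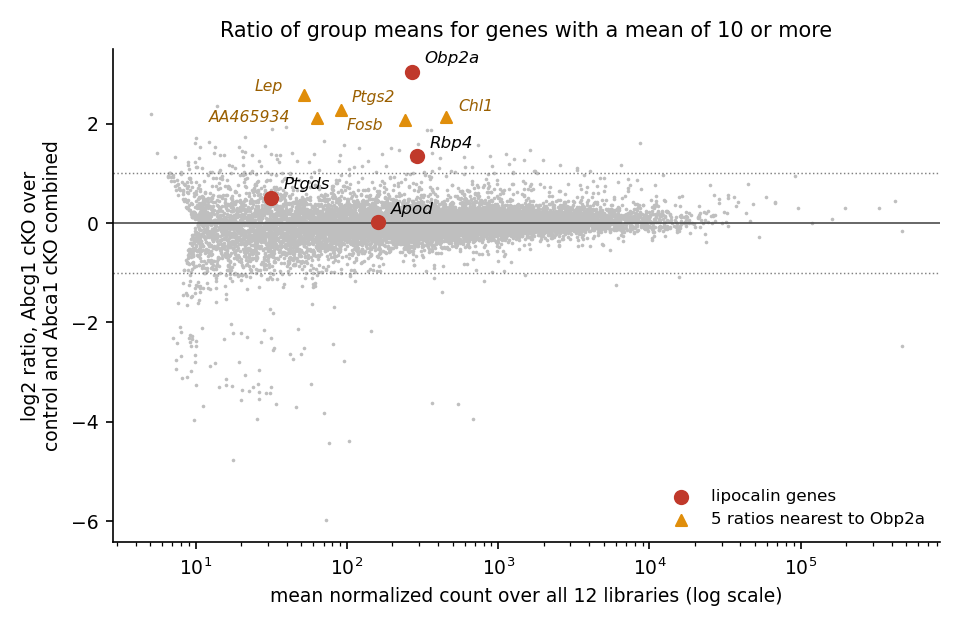
Log2 ratio (pseudocount 1) of the authors' group means for Abcg1 cKO over the pooled group, against the mean normalized count over all 12 libraries on a log scale, for 14479 genes (grey). Red circles mark Obp2a at 3.05, Rbp4 at 1.35, Ptgds at 0.51 and Apod at 0.01, orange triangles mark the 5 genes with ratios nearest to that of Obp2a, and dotted lines mark 2-fold.

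Per kilobase of exon, the order of the members differed between the groups. Lengths were the merged exons of each gene in GENCODE, which may differ from the annotation the authors counted on. In Abcg1 cKO adrenals the mean normalized count per kilobase was 880 for Obp2a, 361 for Rbp4, 62.7 for Apod, 23.8 for Ptgds and 2.80 for Lcn2. In the pooled group Rbp4 came first with 141.8 per kilobase, followed by Obp2a with 105.2, Apod with 62.1, Ptgds with 16.5, Apom with 3.99 and Lcn2 with 1.96. Without values of single libraries it cannot be said which neighbours in these orders differ beyond their spread. Obp2b was at 0.753 per kilobase in Abcg1 cKO and 0.626 in the pooled group, so the level of Obp2a lay far above that of its relative in both.

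The genes around Obp2a were then examined, since it sits in a cluster of lipocalin genes. Within 100 kb on either side RefSeq for GRCm38.p6 lists 17 other genes, of which 14 were in the table and 4 had a mean of 10 or more in at least 1 group. None of these 4 reached a 2-fold difference. Bmyc, a Myc relative that starts 3.55 kb beyond Obp2a, had means of 755 in Abcg1 cKO and 601 in the pooled group (log2 ratio 0.33). Fcna, which encodes the lectin ficolin A, had 70.0 in Abcg1 cKO and 37.8 in the pooled group (log2 ratio 0.87). Fcnaos, annotated as its opposite-strand RNA, overlaps the span of Fcna, and the sources used here do not give the strand setting of the counting, so its count is uncertain. The log2 ratios of Tmem141 and Rabl6 were 0.04 and 0.09.

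The neighbouring lipocalins were barely detected in either group. Obp2b had means of 0.551 in Abcg1 cKO and 0.458 in the pooled group. Lcn5 and Lcn8, known from the epididymis, had 3.40 and 0.490 in Abcg1 cKO against 2.08 and 0.459 in the pooled group. Lcn6 was at 0.244 in Abcg1 cKO and 0.261 in the pooled group, and Lcn10, Lcn3 and Lcn11 were listed at 0 in both. Ptgds lies upstream of Obp2a in the same region. Within 250 kb on either side, 14 genes had a mean of 10 or more, with log2 ratios from -0.29 to 0.87 and a median of 0.04.

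**Figure D3:**
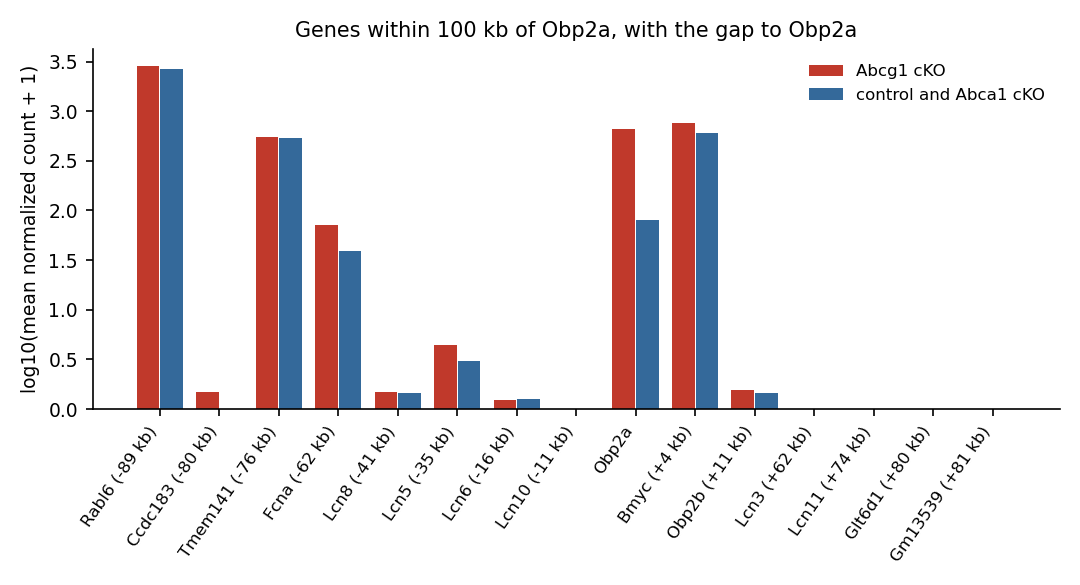
Log10 of the authors' mean normalized count plus 1 for the 14 genes in the table within 100 kb of Obp2a and Obp2a itself, in genomic order with the gap to Obp2a in kb, in Abcg1 cKO (red, left) and in the pooled group of control and Abca1 cKO (blue, right). Counts are not scaled by gene length, and there are no error bars. Obp2a alone shows a wide gap between its bars, while its relative Obp2b, 11 kb away, is near 0 in both.

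A further 44 genes of related carriers had been listed from general knowledge, of which 39 were in the table, 12 were listed at 0 and 14 had a mean of 10 or more in at least 1 group. Of these 14, 6 had a higher and 8 a lower mean in Abcg1 cKO, and the median log2 ratio was -0.10. At least 2-fold higher was 1 of them and at least 2-fold lower were 3, beside 0.822% and 1.12% of all 14479 genes with such a mean. Crabp1, which holds retinoic acid inside cells, was close to no difference, with a log2 ratio of -0.13. Rbp7, a retinol-binding protein of endothelium and fat, was the one past 2-fold upward, at 37.3 in Abcg1 cKO and 13.2 in the pooled group (log2 ratio 1.43). Fabp5, a fatty acid carrier, had means of 524 in Abcg1 cKO and 452 in the pooled group. Fabp4, the fatty acid carrier of adipocytes, had 10350.0 in Abcg1 cKO and 5619 in the pooled group (log2 ratio 0.88).

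The 3 carriers past 2-fold downward, Ambp, Fabp1 and Mup3, are known as products of the liver, and Ambp and Fabp1 reached a mean of 10 only in the pooled group. The acute phase carriers Orm1, Orm2 and Orm3 and also C8g, on the same list, stayed within 2-fold. Their log2 ratios were 0.51, -0.67, -0.25 and -0.19. Ambp, the precursor of alpha-1-microglobulin, had means of 1.23 in Abcg1 cKO and 20.8 in the pooled group (log2 ratio -3.29). Fabp1, the liver fatty acid carrier, had 2.24 in Abcg1 cKO and 32.7 in the pooled group (log2 ratio -3.38), and Mup3, a major urinary protein, had 11.5 in Abcg1 cKO and 43.0 in the pooled group (log2 ratio -1.81). Mup3 shares 15.6% of its runs of 50 bases with other genes of its own family, and its count is uncertain for that reason.

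Markers of the liver differed in the same direction as Ambp, Fabp1 and Mup3 and as Apom, which the liver also makes. All 6 liver markers had a lower mean in Abcg1 cKO, with log2 ratios from -3.63 to -2.13. Their summed mean was 93.1 in Abcg1 cKO against 985 in the pooled group. All 6 were at least 2-fold lower, beside 1.12% of all 14479 genes with such a mean. Serpina1a, Ttr, Fgb and Apoh reached a mean of 10 only in the pooled group, so the filter itself favoured a lower mean for them. Alb and Apoa2 were above 10 in both groups. Alb, which encodes albumin, had 62.1 in Abcg1 cKO and 781 in the pooled group. The part of liver RNA in the Apom value was not tested. Of the 6 markers of the kidney, another source of Apom, none reached a mean of 10, Umod, Slc12a1 and Kap were listed at 0 in both groups, and the summed mean was 7.09 in each.

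Markers of fat differed in the same direction as Rbp4, which adipocytes make as well, and the liver markers above differed in the opposite direction. All 8 adipocyte markers had a higher mean in Abcg1 cKO, with log2 ratios from 0.58 to 2.58. At least 2-fold higher were 5 of the 8, beside 0.822% of all 14479 genes with such a mean. Their summed mean was 45166 in Abcg1 cKO against 20362 in the pooled group, a fold of 2.22. Genes with the highest means, Car3, Cfd and Fabp4, weigh most in these sums. Rbp4 had a fold of 2.54 with a pseudocount of 1, while the fold of the sums was taken without a pseudocount. Fabp4 is itself on this list, and Adipoq, which encodes adiponectin, had 2818 in Abcg1 cKO and 1019 in the pooled group. The parts of fat and of liver in the Rbp4 value were not tested. The highest ratio of the 8 was that of Lep, whose means were the lowest, with 118.8 in Abcg1 cKO and 19.1 in the pooled group. The part of fat in the Obp2a value was not tested either.

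The slightly higher mean of Lcn2 in Abcg1 cKO stood beside lower means of neutrophil markers. Of 7 such markers, 5 had a mean of 10 or more in at least 1 group and all 5 had a lower mean in Abcg1 cKO. S100a8, S100a9, Ngp and Camp reached 10 only in the pooled group, so the filter itself favoured a lower mean for them. Ltf, above 10 in both groups, had a log2 ratio of -0.21. Retnlg and Cxcr2, below 10 in both, had 3.21 and 0.67 in Abcg1 cKO against 3.38 and 1.03 in the pooled group. The summed mean of the 7 was 37.9 in Abcg1 cKO against 131.6 in the pooled group. S100a8 and S100a9, subunits of calprotectin, had 3.95 and 7.96 in Abcg1 cKO against 37.6 and 43.2 in the pooled group. Apod and Ptgds are known from fibroblasts and glia, whose markers differed little. The median log2 ratio was 0.10 over 6 fibroblast and capsule markers, with none past 2-fold, and 0.03 over 4 Schwann and sustentacular cell markers with a mean of 10 or more.

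The glands had the markers of adrenal cortex and medulla in both groups. All 8 cortex markers were measured, among them Cyp11b1 with 224762 in Abcg1 cKO and 181059 in the pooled group, and their log2 ratios ran from -0.15 to 0.44 with a median of 0.22. All 6 medulla markers had a higher mean in Abcg1 cKO, with a median log2 ratio of 0.45, and neither list had a gene past 2-fold. Macrophage and endothelial markers had medians of -0.01 and -0.10. RNAs that normally carry no polyA tail had lower means in Abcg1 cKO. Rn45s, the precursor of ribosomal RNA, had 116183 in Abcg1 cKO and 645559 in the pooled group (log2 ratio -2.47), and Rpph1 and Rmrp, RNAs of RNase P and RNase MRP, had log2 ratios of -3.94 and -3.62. Of 36 small nucleolar and Cajal body RNAs with a mean of 10 or more in at least 1 group, 34 had a lower mean in Abcg1 cKO. At least 2-fold lower were 14 of the 36, beside 1.12% of all 14479 genes with such a mean, and their median log2 ratio was -0.67 over the 36. The table held 119 such RNAs. Some of the 36 reached 10 only in the pooled group, so the filter itself favoured a lower mean for them. Snord17, for example, had 4.25 in Abcg1 cKO and 112.1 in the pooled group. The RNAs without a polyA tail were chosen after the group means were seen, and their counts are a description. The part of the differences of these RNAs in the values of Obp2a and the other members was not tested. Abcg1 itself, counted over the whole gene and so mostly over exons that Cre leaves in place, had means of 249.7 in Abcg1 cKO and 305.4 in the pooled group (log2 ratio -0.29). Abca1 had 10057 in Abcg1 cKO and 7791 in the pooled group, where Abca1 cKO is part of the mean.

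**Figure D4:**
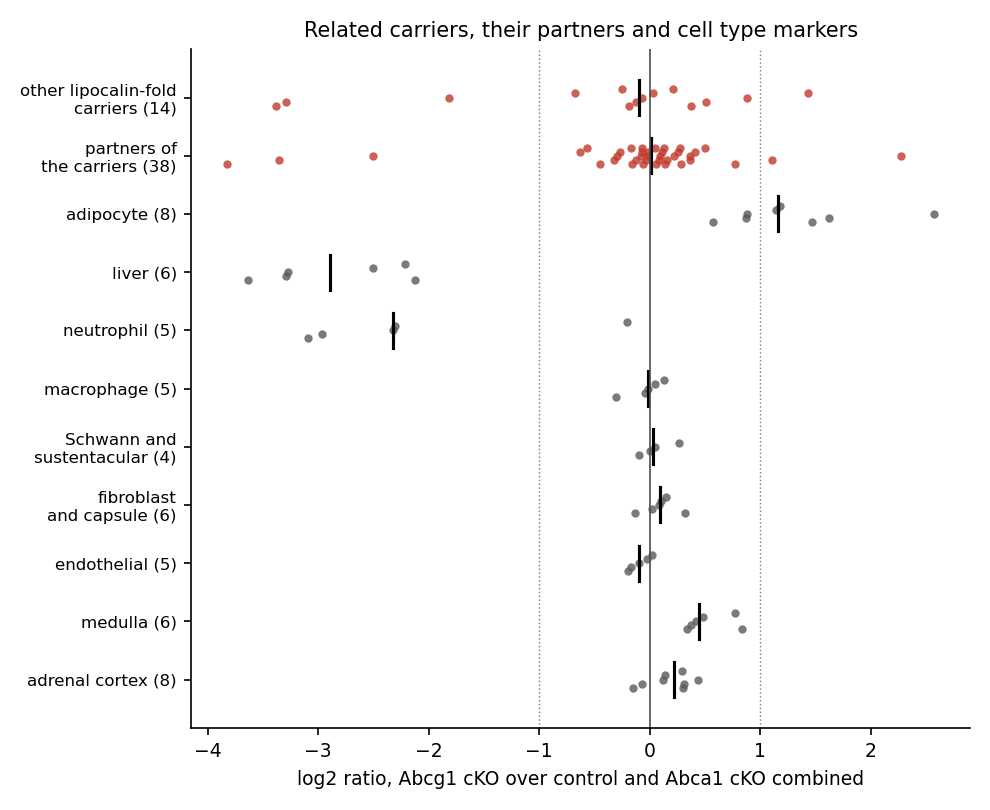
Log2 ratio (pseudocount 1) of the authors' group means for Abcg1 cKO over the pooled group, for genes with a mean of 10 or more in at least 1 group. Each point is a gene, black bars are medians, dotted lines mark 2-fold, and numbers in brackets count the genes shown. Adipocyte markers lie at 0.58 to 2.58, liver markers at -3.63 to -2.13, and most partners of the carriers lie close to 0.

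Receptors, binding partners and enzymes of the members' pathways were listed as well, 44 genes that were all in the table. Of these, 38 had a mean of 10 or more in at least 1 group, 19 with a higher and 19 with a lower mean in Abcg1 cKO. At least 2-fold higher were 2 of the 38 and at least 2-fold lower 3, beside 0.822% and 1.12% of all 14479 genes with such a mean. The 3 lower ones, Ttr, Apob and Apoa1, reached a mean of 10 only in the pooled group. The other partners lay within 2-fold of an equal mean, and the median log2 ratio was 0.01.

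In the prostaglandin pathway around Ptgds, Ptgs2 stood out. Ptgs2 is the inducible cyclooxygenase, which makes the substrate of prostaglandin synthases, and it had means of 194.5 in Abcg1 cKO and 39.4 in the pooled group (log2 ratio 2.28). Ptgs1, the constitutive cyclooxygenase, had 285 in Abcg1 cKO and 292 in the pooled group. Hpgds, the other prostaglandin D synthase, had 63.7 in Abcg1 cKO and 99.4 in the pooled group (log2 ratio -0.63). The receptors for prostaglandin D2, Ptgdr and Ptgdr2, had means of at most 2.01 in either group. Ptges3, a prostaglandin E synthase that also serves as a co-chaperone, had 2535 in Abcg1 cKO and 2309 in the pooled group.

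In retinoid handling, the partner of Rbp4 in plasma, transthyretin, had a difference opposite in direction to that of Rbp4. Ttr had means of 7.26 in Abcg1 cKO and 45.9 in the pooled group (log2 ratio -2.51), and it is also one of the 6 liver markers above. Stra6, the cell surface receptor of Rbp4, had 29.2 in Abcg1 cKO and 32.9 in the pooled group (log2 ratio -0.16). Among 16 genes of this group 14 had a mean of 10 or more, with a median log2 ratio of 0.08. Dhrs3, which returns retinal to retinol, had 1743 in Abcg1 cKO and 1456 in the pooled group, and none of the 16 listed partners was at least 2-fold higher.

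Among partners of the remaining carriers, Scarb1, the HDL receptor, had means of 34944 in Abcg1 cKO and 20445 in the pooled group (log2 ratio 0.77). S1pr1, S1pr2 and S1pr3, receptors of the ligand that Apom carries, had log2 ratios of 0.16, 0.09 and -0.07, and Sgpl1, the lyase that degrades this ligand, had one of 0.04. Apoa1 and Apob, the main proteins of HDL and LDL and also products of the liver, had 6.34 and 1.96 in Abcg1 cKO against 103.1 and 29.3 in the pooled group. Bsg, reported as a receptor of Apod, had a log2 ratio of 0.13, and Slc22a17, a receptor of Lcn2, one of 0.10.

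With group means alone, likeness to Obp2a could be measured only as the distance between log2 ratios. Among 12432 genes with a mean of 50 or more in at least 1 group, the 5 nearest were Lep, Ptgs2, Chl1, AA465934 and Fosb. All 5 lay below Obp2a, which had the highest ratio of the 12432. Their log2 ratios were 2.58 for Lep, which encodes leptin, 2.28 for Ptgs2, 2.14 for Chl1, a cell adhesion molecule, 2.11 for AA465934 and 2.08 for Fosb, an immediate early transcription factor. The gap between Obp2a and the nearest of them was 0.47 on the log2 scale. Lep, Ptgs2 and AA465934 reached a mean of 50 only in Abcg1 cKO, so the filter itself favoured a higher ratio for them. Across 2 means such a likeness says nothing of whether these genes vary together between animals.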

How the data were processed

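Whole-adrenal RNA was polyA-selected and sequenced from stranded libraries. Per the labels and the methods, the authors used bcl2fastq 2.20.0.422 for demultiplexing, cutadapt 4.0 for trimming, FastQC 0.11.9 for quality checks, STAR 2.7.10a for mapping to mm10, HTSeq 0.13.5 for counting and DESeq2 1.38.3 for normalization. NovaSeq and NextSeq instruments were used, but no source read here assigns libraries to them, and a sequencing batch could not be examined. Reads that were short, of low quality or held uncalled bases were discarded, and those mapped to 1 place were counted. The deposited signal values used here are normalized counts averaged by the authors over 4 Abcg1 cKO libraries and over 8 control and Abca1 cKO libraries. Raw depth per library is unknown from such means, and counting error could not be computed. A further 12 columns hold single libraries under names that the labels do not contain. They were not assigned by order or values and were left out, as were the authors' own fold changes and p-values for this comparison. The model planned for single libraries was therefore not fitted.

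Log2 ratios were taken with a pseudocount of 1, and genes past 2-fold were counted where at least 1 group mean reached 10. The ratio understates differences of genes with low means. The members and all lists were chosen with earlier results of these data known. Genes named were the members, up to 6 of each list by level and any past 2-fold, measured neighbours of Obp2a within 100 kb, the 5 ratios nearest to Obp2a, and markers as examples. Some genes that this rule takes are not reported here. Some partners and carriers were named for their role after their values were seen, and so were the comparison with Obp2b, the motifs and the RNAs without a polyA tail. Of the 44 related carriers, 5 were not matched in the table and are not analysed here. Positions came from RefSeq (GRCm38.p6) and GENCODE of the same build. Promoter windows matched all 6 members, with 7 windows. Runs of 50 bases were searched on both strands of all GENCODE transcripts, and transcripts were aligned with Biopython 1.88. The ratio and count steps were tested on simulated data, scored only for genes with high means. That test does not cover genes as low as Lcn2, Apom or Ptgds. Tables were handled in Python 3.11.15 with pandas 2.3.3 and figures drawn with matplotlib 3.10.9. Alternatives were other pseudocounts, filters, folds and scalings.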

Additional observations from a re-analysis of the deposited data

How the results depend on the processing

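The log2 ratios of Obp2a, Lcn2, Ptgds, Rbp4 and Apod were each recomputed with pseudocounts of 0.1 and 10, less the median ratio of all genes, and with group means scaled to an equal sum. All 20 values stayed within 1.5-fold of those reported, and the log2 ratio of Obp2a ran from 2.91 to 3.06. The folds of Lcn2, Ptgds and Apod were themselves 1.36, 1.43 and 1.01, so this margin cannot show whether their differences hold. The log2 ratio of Lcn2 went from 0.44 to 0.20 with a pseudocount of 10. That of Apod, which was close to 0, turned to -0.03 under the equal sum. The number of genes at least 2-fold higher in Abcg1 cKO was 119. It was 199 with no filter, 73 with a mean of 50 or more, 71 with a pseudocount of 10, 419 at a fold of 1.5 and 19 at a fold of 3. The number at least 2-fold lower was 162, and under the same settings 401, 39, 77, 525 and 81. Fewer genes enter under a stricter filter, and a larger pseudocount shrinks ratios of low genes. No paired analysis was possible because the group means carry no replicate numbers, and for the same reason no replicate could be left out and the fits planned for single libraries were not run. Means without depth limit Lcn2 and Apom most, both below 10 in each group.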

Other observations

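Orosomucoids are acute phase carriers of the lipocalin fold, and the means of their 3 genes differed in opposite directions. Orm1 had a mean of 381 in Abcg1 cKO and 267 in the pooled group (log2 ratio 0.51), while Orm3 had 157.9 in Abcg1 cKO and 187.5 in the pooled group (log2 ratio -0.25) and Orm2 had 9.70 in Abcg1 cKO and 16.1 in the pooled group (log2 ratio -0.67). Per kilobase of exon, Orm1 was at 492 in Abcg1 cKO and 344 in the pooled group. The 3 genes lie next to each other on chromosome 4, from 63344560 for Orm1 to 63365878 for Orm2. Runs of 50 bases shared with other genes made up 20.4% of the Orm1 transcript, 22.7% of that of Orm2 and 3.59% of that of Orm3, so the split of reads between them is uncertain.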
